A study of Mus musculus with 8 samples.

Results

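Endoplasmic reticulum (ER) stress and folding genes were examined in RNA-Seq counts of mouse lung. The 10 genes, Hspa5, Hsp90b1, Xbp1, Ern1, Ern2, Creb3l1, Creld2, Dnajb9, Ddit3 and Pdia4, were chosen by symbol through their Entrez identifiers out of 23469 genes in the count table, and all 10 had a row. The mice were C57BL/6 wild type (WT) and DDAH1-transgenic (TG) animals, the latter made to overexpress an enzyme that breaks down the nitric oxide synthase inhibitor ADMA. They received either PBS alone or house dust mite extract (HDM, 100 µg in 50 µl of PBS), a common allergen, through the trachea 3 times a week over 3 weeks, and the lungs were taken 24 hours after the last dose. This gave 4 groups, WT PBS, TG PBS, WT HDM and TG HDM. In each group, RNA of 4 mice was pooled and read as 2 libraries, so every SD below is a spread between 2 libraries of a single pool and p-values do not cover the variation between mice. The promoter and the cells that drive the transgene, the ages of the mice and their sex were not given in the sources used here.

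Proteins bound for secretion or for membranes are folded in the ER. When unfolded proteins build up there, the unfolded protein response is started by membrane sensors: IRE1, PERK and ATF6. IRE1 splices the mRNA of the transcription factor XBP1, PERK slows translation and favours ATF4 and CHOP, and cleaved ATF6 acts as a transcription factor itself. Their target genes encode chaperones, disulfide isomerases and parts of the machinery that removes misfolded proteins. Mucus-producing goblet cells and antibody-secreting plasma cells, which both appear in the allergic lung, carry a heavy folding load. IRE1β and CREB3L1 belong to the same response in mucosal and matrix-secreting cells.

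Depth and the labels set limits on all results. The libraries held between 5694928 and 11929374 counts, with the shallowest being TG HDM replicate 1. The gene Ddah1 had 475 and 420 counts in WT PBS, 771 and 509 in TG PBS, 482 and 445 in WT HDM and 233 and 431 in TG HDM. After scaling, TG libraries were above WT libraries with PBS (means of 65.4 and 41.0 CPM, counts scaled to the size of the library) and below them with HDM (34.1 and 43.9). Neither difference passed the test, at 0.66 on the log2 scale (SE 0.26, adjusted p = 0.358, edgeR) with PBS and -0.32 (SE 0.29, adjusted p = 0.637, edgeR) with HDM. The TG HDM libraries thus did not show the higher level that their label implies, and they are named here as labelled. Whether reads of the transgene count toward this gene was not given in the sources used here. Xist, the RNA of the inactive X chromosome, was at 11.3 to 20.8 CPM with PBS and at 2048 to 3040 with HDM. Ddx3y, on the Y chromosome, was at 58.7 to 69.0 CPM with PBS and at 0.179 to 0.301 with HDM. HDM treatment and this split by sex cannot be told apart in any comparison of HDM with PBS. The same holds for any test of whether the genotype difference changes with treatment.

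Of the 10 genes, Hsp90b1 and Hspa5 gave the highest levels per kb of transcript in every group. In WT PBS lungs, Hsp90b1 stood at 302 ± 7.96 CPM per kb (SD, n = 2) and Hspa5 at 111 ± 3.13. Xbp1 followed at 65.3 ± 2.14, Dnajb9 at 57.1 ± 1.03 and Pdia4 at 28.6 ± 1.77, with no overlap between neighbours in this order. Creld2 at 17.3 ± 6.42 and Creb3l1 at 16.0 ± 1.45 overlapped, as did Ddit3 at 5.92 ± 2.80 and Ern1 at 3.98 ± 0.390. Ern2 came last at 0.276 ± 0.244 CPM per kb. The transcripts of these chaperones, Hsp90b1 and Hspa5, were thus far more abundant than those of the sensors. The order rests on the length used, because the reads were counted over coding regions. Per kb of coding sequence, Hsp90b1 was still first in every group but Hspa5 was not second. In WT PBS, Dnajb9 with its short reading frame (666 of 2461 bases) reached 211 and lay beside Hspa5 at 208. In TG PBS, Dnajb9 (235) and Xbp1 (198) were above Hspa5 (187) without overlap. Dnajb9 (332) had a higher mean than Hspa5 (303) in WT HDM, as did Xbp1 (316) than Hspa5 (295) in TG HDM, with overlapping libraries.

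**Figure D1:**
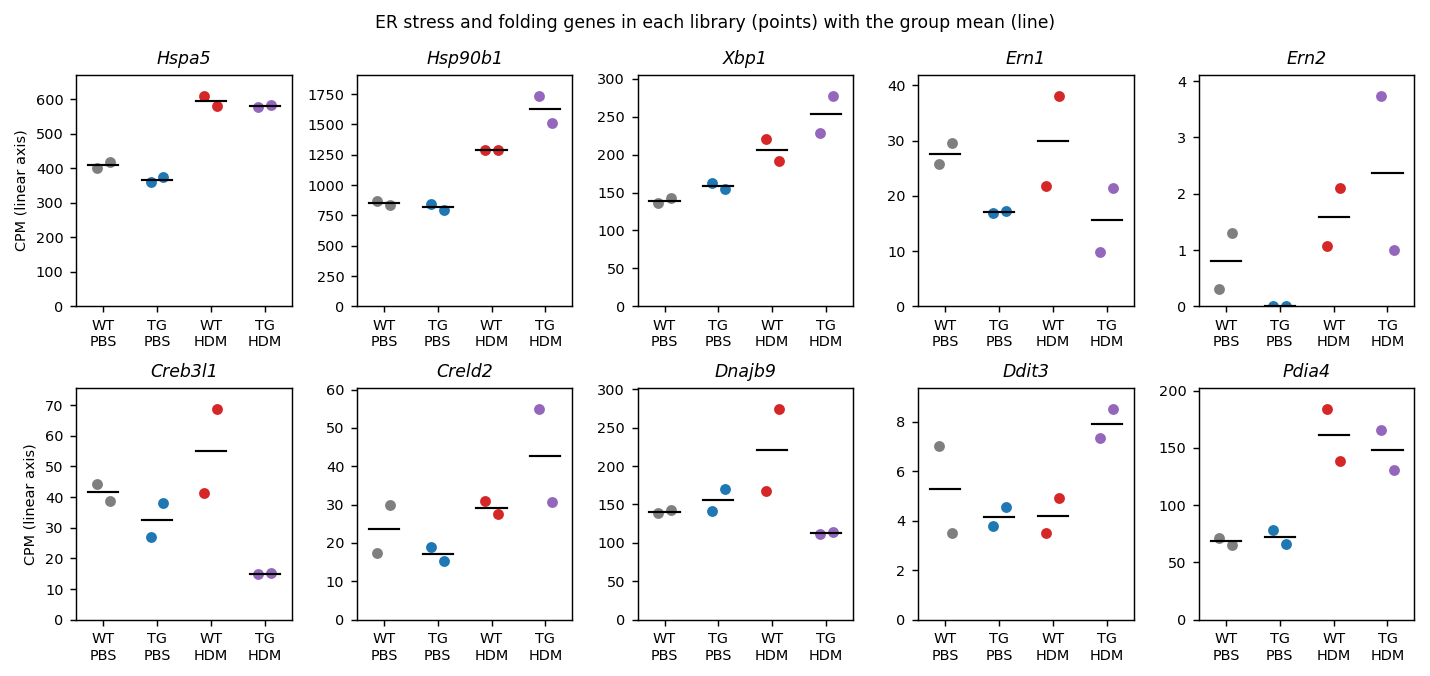
Each panel shows the CPM of a gene on a linear axis that starts at 0, with a point for each library and a line at the mean of the 2 libraries of a group. Hspa5, Hsp90b1, Xbp1 and Pdia4 lay higher in all HDM-treated libraries than in all PBS-treated ones, while Creb3l1 and Dnajb9 had their lowest levels in the TG HDM libraries.

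The folding genes Hspa5, Hsp90b1 and Pdia4 rose with HDM in both genotypes, while Creld2 passed the test in TG mice and not in WT mice and Dnajb9 in neither. Hspa5 (Entrez 14828, GRCm38.p6 chromosome 2, 34772090 to 34776529, plus strand) encodes BiP, the Hsp70 chaperone of the ER, which also holds the sensors inactive. It measured 401 and 417 CPM in the WT PBS libraries, 359 and 375 in TG PBS, 611 and 581 in WT HDM and 577 and 583 in TG HDM. The lowest HDM-treated library was above the highest PBS-treated library. The log2 fold change of HDM against PBS was 0.54 (SE 0.12, adjusted p = 0.0112, edgeR) in WT mice and 0.68 (SE 0.17, adjusted p = 0.0197, edgeR) in TG mice.

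Hsp90b1 (Entrez 22027, chromosome 10, 86690841 to 86705444, minus strand) encodes GRP94, the Hsp90 chaperone of the ER. Its levels were 869 and 837 CPM in WT PBS, 844 and 796 in TG PBS, 1293 and 1289 in WT HDM and 1737 and 1510 in TG HDM. The PBS-treated libraries of the genotypes overlapped, and the TG HDM libraries were the highest of all. The gene rose by 0.60 on the log2 scale in WT mice (SE 0.10, adjusted p = 0.0017, edgeR) and by 1.01 in TG mice (SE 0.16, adjusted p = 0.0017, edgeR), the latter a 2.01-fold difference. Of the 50-base stretches of its transcript, 13.8% also occur in overlapping transcripts (1810014B01Rik, Gm15344 and Gm25745), so some reads may have been divided among them.

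Pdia4 (Entrez 12304, chromosome 6, 47796141 to 47813512, minus strand), a disulfide isomerase also called ERp72, had the largest log2 fold change of the 4 genes among the 10 that were called in WT mice. It read 71.5 and 65.5 CPM in WT PBS, 78.0 and 66.4 in TG PBS, 184 and 139 in WT HDM and 166 and 131 in TG HDM. Every HDM-treated library was above every PBS-treated one, and within either treatment the genotypes overlapped. The log2 fold change was 1.24 in WT mice (SE 0.18, adjusted p = 0.00079, edgeR) and 1.06 in TG mice (SE 0.23, adjusted p = 0.0111, edgeR).

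Creld2 (Entrez 76737, chromosome 15, 88819646 to 88826681, plus strand) encodes a secreted ER resident that is induced by ER stress. It was at 17.5 and 29.9 CPM in WT PBS, 19.0 and 15.3 in TG PBS, 30.8 and 27.6 in WT HDM and 55.0 and 30.6 in TG HDM. In WT mice the libraries overlapped, while in TG mice they did not. The log2 fold change was 0.30 in WT mice (SE 0.33, adjusted p = 0.689, edgeR) and 1.34 in TG mice (SE 0.38, adjusted p = 0.0361, edgeR), and the latter was 0.84 and not called without TG HDM replicate 1. The difference between these responses (1.01, SE 0.51, adjusted p = 0.374, edgeR) did not pass the test.

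The promoters of Hspa5, Hsp90b1 and Creld2 are shown because they hold the ER stress response element (ERSE), the sequence through which ATF6, with the CCAAT-binding factor NF-Y, and XBP1 are known to act. Windows from 250 bases before to 50 bases after the start site (RefSeq, GRCm38.p6) were on hand for 8 of the 10 genes, all but Ern2 and Creb3l1. Of these 8, 3 held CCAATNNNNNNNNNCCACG on either strand, against 0.119% of 32851 promoter windows in all. Among the other genes of the lists described below, 7 of 121 with a window held it. The 10 genes were chosen as genes of this response, so their share is a description and not independent evidence. The 250 bases before the start sites follow, 5′ to 3′ on the strand of the gene, with the fixed letters of the element (CCAAT and CCACG, or CGTGG and ATTGG where it lies on the opposite strand) in capitals. They cover chr2:34771840-34772089 (plus strand), chr10:86705445-86705694 (minus strand) and chr15:88819396-88819645 (plus strand).
Hspa5: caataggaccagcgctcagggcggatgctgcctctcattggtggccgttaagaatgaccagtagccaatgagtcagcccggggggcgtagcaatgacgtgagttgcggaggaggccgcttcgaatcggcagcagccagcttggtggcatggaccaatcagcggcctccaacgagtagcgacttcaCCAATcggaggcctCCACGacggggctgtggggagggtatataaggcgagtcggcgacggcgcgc
Hsp90b1: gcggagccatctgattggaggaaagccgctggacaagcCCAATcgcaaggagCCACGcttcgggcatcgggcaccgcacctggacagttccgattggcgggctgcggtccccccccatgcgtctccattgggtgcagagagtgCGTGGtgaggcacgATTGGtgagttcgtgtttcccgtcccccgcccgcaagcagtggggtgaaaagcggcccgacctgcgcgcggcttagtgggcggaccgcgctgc
Creld2: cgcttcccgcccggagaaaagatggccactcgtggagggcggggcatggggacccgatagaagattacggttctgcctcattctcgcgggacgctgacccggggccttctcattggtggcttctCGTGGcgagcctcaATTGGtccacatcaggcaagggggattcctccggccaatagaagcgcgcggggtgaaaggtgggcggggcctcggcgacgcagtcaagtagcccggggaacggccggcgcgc

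The element lay 65 to 47 bases before the start site of Hspa5, on the strand of the gene. Hsp90b1 had a match on the strand of the gene at 212 to 194 bases before its start and another, on the opposite strand, at 107 to 89 bases. In Creld2 the match was on the opposite strand, 126 to 108 bases before the start. Only exact letters were searched, and no window of the 8 genes held the related ERSE-II (ATTGG and CCACG with 1 free base between, 0.0365% of all windows), the unfolded protein response element TGACGTGG (0.676%) or the ATF4 element TGATGCAA (0.895%). Beside these 3, the window of 18 tested genes held an exact ERSE, of which 1 rose with HDM in WT mice and 3 in TG mice, where 4.44% and 8.43% of all genes rose. None of the 21 was called between genotypes under PBS or under HDM, where only 0.657% and 2.44% of all genes were called.

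Xbp1 (Entrez 22433, chromosome 11, 5520641 to 5525993, plus strand), the transcription factor whose mRNA IRE1 splices, also rose with HDM. Its levels were 136 and 142 CPM in WT PBS, 162 and 155 in TG PBS, 221 and 192 in WT HDM and 228 and 278 in TG HDM. The HDM-treated libraries were all above the PBS-treated ones, and under either treatment the TG libraries were above the WT libraries. The log2 fold change with HDM was 0.57 in WT mice (SE 0.15, adjusted p = 0.0375, edgeR) and 0.69 in TG mice (SE 0.19, adjusted p = 0.0351, edgeR). With an offset for transcript length it was 0.50 (adjusted p = 0.0597) and 0.41 (adjusted p = 0.203), and neither call was kept. The counts are of the whole gene and do not separate its spliced from its unspliced form.

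The sensors showed no common change. Ern1 (Entrez 78943, chromosome 11, 106397620 to 106487796, minus strand), which encodes the widely expressed IRE1α, read 25.7 and 29.5 CPM in WT PBS, 16.9 and 17.3 in TG PBS, 21.8 and 38.2 in WT HDM and 9.88 and 21.4 in TG HDM. The TG libraries were below the WT libraries under either treatment. Neither genotype difference passed the test, with log2 fold changes of -0.70 (SE 0.32, adjusted p = 0.485, edgeR) with PBS and -0.89 (SE 0.45, adjusted p = 0.357, edgeR) with HDM. Against PBS, HDM gave 0.11 (SE 0.33) in WT mice and -0.11 (SE 0.46) in TG mice.

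Ern2 (Entrez 26918, chromosome 7, 122169893 to 122186239, minus strand) encodes IRE1β, the form found in mucosal epithelium such as goblet cells. It had 3 and 16 counts in WT PBS, 0 and 0 in TG PBS, 12 and 21 in WT HDM and 25 and 13 in TG HDM. The WT libraries overlapped between treatments, and TG PBS lay below all other libraries. From the floor of 3 counts in each TG PBS library (0.308 CPM on average), Ern2 was at least 7.71-fold higher in TG HDM lungs (adjusted p = 0.0434, edgeR), and at least 3.27-fold higher without TG HDM replicate 1 and 12.1-fold without TG HDM replicate 2. In WT mice the log2 fold change was 0.95 (SE 1.12, adjusted p = 0.711, edgeR), and at these counts a change of this size could not be detected. Floors cover counting error only, because copies made by PCR are counted as separate reads.

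The largest fitted difference between genotypes was that of Creb3l1 (Entrez 26427, chromosome 2, 91982328 to 92024170, minus strand). It encodes OASIS, a membrane-bound transcription factor related to ATF6 that is known for its part in collagen secretion. The levels were 44.2 and 38.9 CPM in WT PBS, 27.0 and 38.0 in TG PBS, 41.5 and 68.8 in WT HDM and 14.8 and 15.2 in TG HDM. The TG HDM libraries were the lowest of all and close to each other, while the WT HDM libraries were far apart. Between the HDM-treated groups the gene fell by 1.84 on the log2 scale in TG mice (SE 0.35, adjusted p = 0.0186, edgeR). The call was lost without WT HDM replicate 1 (-2.18, adjusted p = 0.186) and without WT HDM replicate 2 (-1.42, adjusted p = 0.308), where a single WT HDM library remained. With PBS the difference was -0.36 (SE 0.28, adjusted p = 0.725, edgeR). Against PBS, HDM gave 0.41 (SE 0.27, adjusted p = 0.447) in WT mice and -1.09 (SE 0.37, adjusted p = 0.0710) in TG mice, neither past the threshold.

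Dnajb9 (Entrez 27362, chromosome 12, 44205897 to 44210068, minus strand) encodes ERdj4, a cochaperone of BiP and a target of XBP1. It read 139 and 142 CPM in WT PBS, 142 and 171 in TG PBS, 167 and 274 in WT HDM and 112 and 114 in TG HDM. As with Creb3l1, the TG HDM libraries were the lowest of all, and the WT HDM libraries were the highest but for the overlap of WT HDM replicate 1 with TG PBS replicate 2. The genotype difference with HDM was -0.93 (SE 0.24, adjusted p = 0.0780, edgeR). It was past the threshold with DESeq2 (adjusted p = 0.0087), with the replicate number as a block (adjusted p = 0.0238) and in a fit of all 8 libraries (adjusted p = 0.0118), and was -0.52 (adjusted p = 0.616) without WT HDM replicate 2. HDM against PBS gave 0.65 (SE 0.20, adjusted p = 0.0692) in WT mice and -0.45 (SE 0.21, adjusted p = 0.193) in TG mice. Of its 50-base stretches, 5.80% also occur in the transcript of Gm6568.

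Ddit3 (Entrez 13198, chromosome 10, 127290793 to 127296291, plus strand) encodes CHOP, the factor at the end of the PERK branch that favours cell death. It had between 38 and 110 counts a library, at 7.03 and 3.51 CPM in WT PBS, 3.79 and 4.54 in TG PBS, 3.49 and 4.92 in WT HDM and 7.34 and 8.52 in TG HDM. The TG HDM libraries were the highest of all, but WT PBS replicate 1 came close to them. No comparison passed the test, and the log2 fold changes of TG HDM were 0.95 (SE 0.66, adjusted p = 0.515, edgeR) against WT HDM and 0.95 (SE 0.65, adjusted p = 0.385, edgeR) against TG PBS. With the offset for transcript length, the shortest of the 10 at 890 bases, these became 0.42 and 0.07. The gene overlaps Mars on the opposite strand, and 2.26% of its 50-base stretches occur there too.

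In counts, HDM against PBS called 4 of the 10 genes in WT mice, all higher (Hspa5, Hsp90b1, Xbp1 and Pdia4), where 6.74% of all 15123 genes tested were called (4.44% as higher). The median log2 fold change of the 10 genes was 0.56 beside 0.02 over all genes, and the libraries of 5 did not overlap between treatments, as for 49.8% of all genes. With a library left out, Hspa5 stayed at 0.50 to 0.56 and Hsp90b1 at 0.56 to 0.62. Xbp1 was then at 0.46 to 0.65 and Pdia4 at 1.01 to 1.41. The number called also changed, as it did over all genes, both given at the end. In TG mice 6 of 10 were called, all higher (the same 4 with Ern2 and Creld2), where 13.8% of 15086 genes were called (8.43% as higher), with medians of 0.82 and 0.03. Here the libraries of 7 genes lay higher with HDM and those of 2 lower without overlap, against 56.8% of all genes in either direction. Without TG PBS replicate 1 or without TG PBS replicate 2, Hspa5, Hsp90b1 and Pdia4 kept log2 fold changes between 0.64 and 1.18. Calls changed with a library left out here too, for the 10 genes and over all genes. The comparisons of HDM with PBS in WT and in TG mice share no library with each other, but each shares its libraries with the genotype comparisons.

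Longer transcripts had lower log2 fold changes across genes, with a Spearman correlation of -0.126 over 14372 genes in WT mice and -0.331 over 14351 genes in TG mice, which are a description and not independent points. With the length offset, 3 of the 10 genes were called in either genotype. These were Hspa5 (0.52 in WT mice, 0.67 in TG mice), Hsp90b1 (0.55 and 0.88) and Pdia4 (1.18 and 0.85). Creld2 in TG mice went to 0.79 (adjusted p = 0.237) and Ern2 to an adjusted p of 0.0634.

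**Figure D2:**
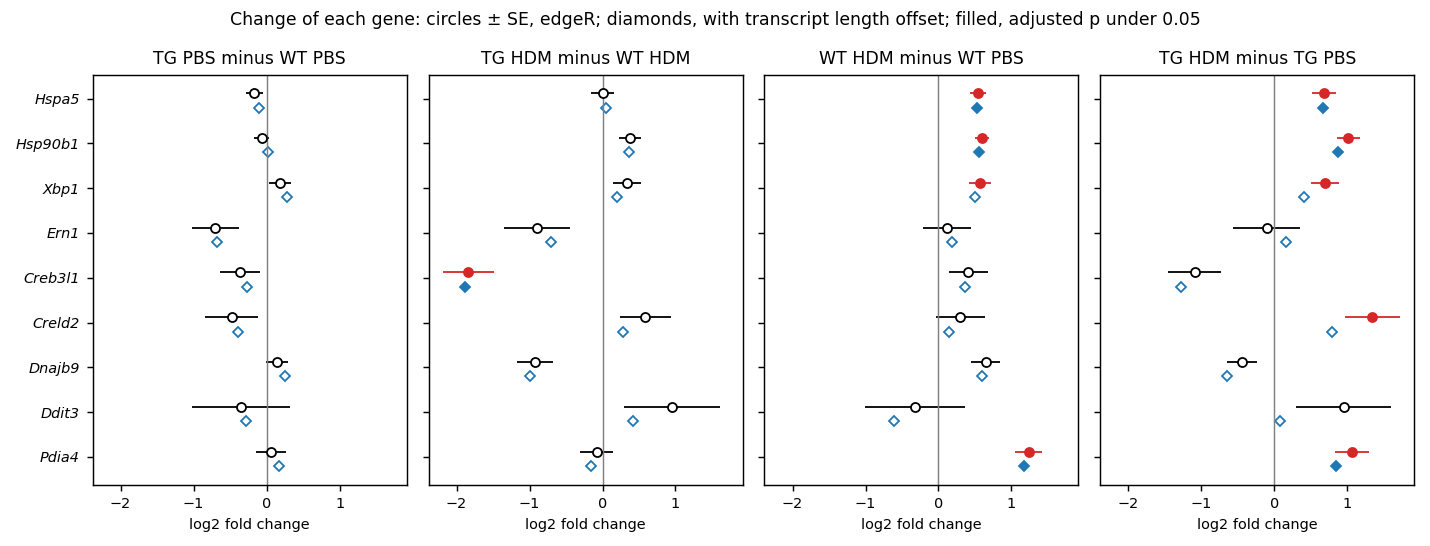
Log2 fold changes of the genes in the 4 comparisons, as circles with the SE from edgeR and as diamonds with an offset for transcript length, where filled symbols have an adjusted p under 0.05. Ern2 is not drawn because it had no count in TG PBS. Hspa5, Hsp90b1 and Pdia4 are filled by both methods in both comparisons of HDM with PBS, and Creb3l1 in TG HDM against WT HDM.

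Between genotypes, none of the 9 genes tested was called with PBS by edgeR, where 0.657% of 14926 genes were called, and 1 (Ern1) had an unadjusted p under 0.05, where 9.98% of all genes did. The TG libraries lay above the WT libraries for 1 of the 9 and below them for 3, against 40.3% of all genes in either direction. The same count of 0 came from DESeq2. The largest difference there other than that of Ern1 was that of Creld2, at -0.48 (SE 0.36). Ern2 was under the low-count filter and not tested there, and WT PBS replicate 1 was itself at the floor of 3 counts. With HDM 1 of 10 was called, Creb3l1, where 2.44% of 15191 genes were called. With a library left out its log2 fold change was between -2.18 and -1.42. The number of calls then changed for the 10 genes and over all genes, as given at the end. The TG libraries lay above the WT libraries for 3 of the 10 and below them for 3, against 48.2% of all genes in either direction. Hspa5 differed by 0.00 (SE 0.16), Pdia4 by -0.08 (SE 0.23), Xbp1 by 0.33 (SE 0.19) and Hsp90b1 by 0.37 (SE 0.15, adjusted p = 0.244, edgeR). For these 4 genes, called with HDM in both genotypes, the largest fitted difference between the genotypes was thus 0.37 on the log2 scale, which is no upper bound. With a library left out it reached 0.48 for Hsp90b1 and 0.45 for Xbp1. Creld2 (0.59, SE 0.35), Ddit3 (0.95) and Dnajb9 (-0.93) differed by more, in both directions, and did not pass the test.

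Whether the genotype difference itself changed with HDM, which here cannot be told apart from the split by sex, was tested over all 8 libraries. None of the 10 genes was called by edgeR, where 1.76% of 15868 genes were, and 4 had an unadjusted p under 0.05, where 14.7% of all genes did. These were Hsp90b1 (0.39, SE 0.17), Ern2, Creb3l1 (-1.52, SE 0.45, adjusted p = 0.0957) and Dnajb9 (-1.12, SE 0.30, adjusted p = 0.0669). DESeq2 called 2 of the 10, Creb3l1 (adjusted p = 0.0291) and Dnajb9 (adjusted p = 0.0164). With the length offset Dnajb9 alone was called (-1.25, adjusted p = 0.0425), and without WT HDM replicate 2 it was -0.71 (adjusted p = 0.321).

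The other genes of the pathway were read from 8 lists that held 137 genes beside the 10. In WT mice, 14 of 131 tested (10.7%) rose with HDM and none fell, where 4.44% of all genes rose. The largest changes were those of Agr2 (2.37, SE 0.66), a disulfide isomerase that goblet cells need for mucin, and Psat1 (2.37, SE 0.42), a serine synthesis enzyme under ATF4. Prdx4 (1.91, SE 0.36), an ER peroxidase, Cnpy3 (1.32, SE 0.33), a cochaperone of GRP94 for Toll-like receptors, and Sdf2l1 (1.22, SE 0.26), a partner of BiP, came next. By role, 3 of 20 ER chaperones, 4 of 19 disulfide isomerases and oxidases, 4 of 22 genes of ER-associated degradation, 1 of 23 of translocation and signal peptide removal, 1 of 11 of the oligosaccharyltransferase and 1 of 16 PERK-ATF4-CHOP targets rose, so that the last 3 lists had a single call each, near the share of all genes. None of the 8 prolyl isomerases (3 with an unadjusted p under 0.05, against 19.9% of all genes) or of the 12 other sensors and transcription factors (0 with such a p) was called by edgeR. Agr2 was at 1.57 and not called without WT PBS replicate 1, at 4.50 without WT PBS replicate 2 and at 2.12 (adjusted p = 0.0697) with the length offset, and Cnpy3 was at 0.83 without WT HDM replicate 2 and was not called without that library or without either WT PBS library. The total changed with a library left out, as did that over all genes, both given at the end.

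In TG mice, 34 of 133 rose with HDM and 1 fell (26.3% called), where 13.8% of all genes were called and 8.43% rose. Sec11c (2.61, SE 0.33) and Ssr4 (2.28, SE 0.38), which act on proteins as they enter the ER, and Manf (2.38, SE 0.37), a secreted cofactor of BiP, rose most after Derl3 and Agr2 (3.56, SE 0.91). Derl3, a degradation factor of secretory cells whose promoter window also held an exact ERSE, had 0 and 4 counts in TG PBS, 71 and 163 in TG HDM, 13 and 31 in WT PBS and 78 and 104 in WT HDM. Slc3a2 (-0.75, SE 0.20), an amino acid transporter subunit under ATF4, fell. The genes that rose were 10 of 23 of translocation and signal peptide removal, 7 of 22 of degradation, 6 of 19 disulfide isomerases and oxidases, 5 of 20 chaperones, 4 of 11 of the oligosaccharyltransferase and 2 of 8 prolyl isomerases. None of the 12 other sensors and transcription factors was called by edgeR, and 2 had an unadjusted p under 0.05, against 27.7% of all genes. Agr2 was at 2.63 and not called without TG PBS replicate 2, at 7.13 without TG PBS replicate 1 and at 2.61 (adjusted p = 0.0876) with the length offset. The total of 35 was 18 (16 higher, 2 lower) with the length offset. It also changed with a library left out, as did that over all genes, both given at the end. The genes called in both genotypes were 8, or 57.1% of those called in WT mice and 22.9% of those called in TG mice.

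Between genotypes with PBS none of the 132 other genes tested was called by edgeR, 15 had an unadjusted p under 0.05, near the 9.98% of all genes, and DESeq2 called 2. Calls in the lists and over all genes changed with a library left out, as given at the end. With HDM 8 of 133 were higher in TG mice and none lower, where 1.84% of all genes were called higher and 0.599% lower, and 6 of these were genes of translocation and signal peptide removal. Sec61b rose from 42.4 ± 1.90 to 158 ± 4.11 CPM (SD, n = 2), a log2 fold change of 1.94 (SE 0.22, adjusted p = 0.0015, edgeR). Sec61g (1.61, SE 0.29), also a subunit of the Sec61 channel, Srp9 (1.48, SE 0.34) and Srp19 (1.26, SE 0.28) of the signal recognition particle, and Spcs1 (1.37, SE 0.24) of the signal peptidase followed. The study listed Sec61b among the genes it chose on these libraries, so its direction is not independent evidence. Longer transcripts had lower log2 fold changes here too, with a Spearman correlation across genes of -0.281 in this comparison and -0.241 in the interaction, against 0.013 between genotypes with PBS. With the length offset 3 of the 133 were called (2 higher, 1 lower), and Sec61b (1.24) and Sec61g (1.43) kept their calls. Srp9 was at 0.95 and not called without TG HDM replicate 1. The number called in these lists changed widely with a library left out, as did that over all genes, both given at the end.

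Heat shock genes of the cytosol and mitochondria were read as a comparison list of 16. With HDM, 0 were called by edgeR in WT mice (5 with an unadjusted p under 0.05), and 1 rose and 2 fell in TG mice, with medians of -0.10 and -0.16. Over all genes 6.74% were called in WT mice (19.9% with an unadjusted p under 0.05) and 13.8% in TG mice. Between genotypes 1 was higher in TG mice with PBS (median 0.30), where 42 of 14926 genes were called higher. With HDM 1 was higher (median 0.22), where 1.84% of all genes were called higher.

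**Figure D3:**
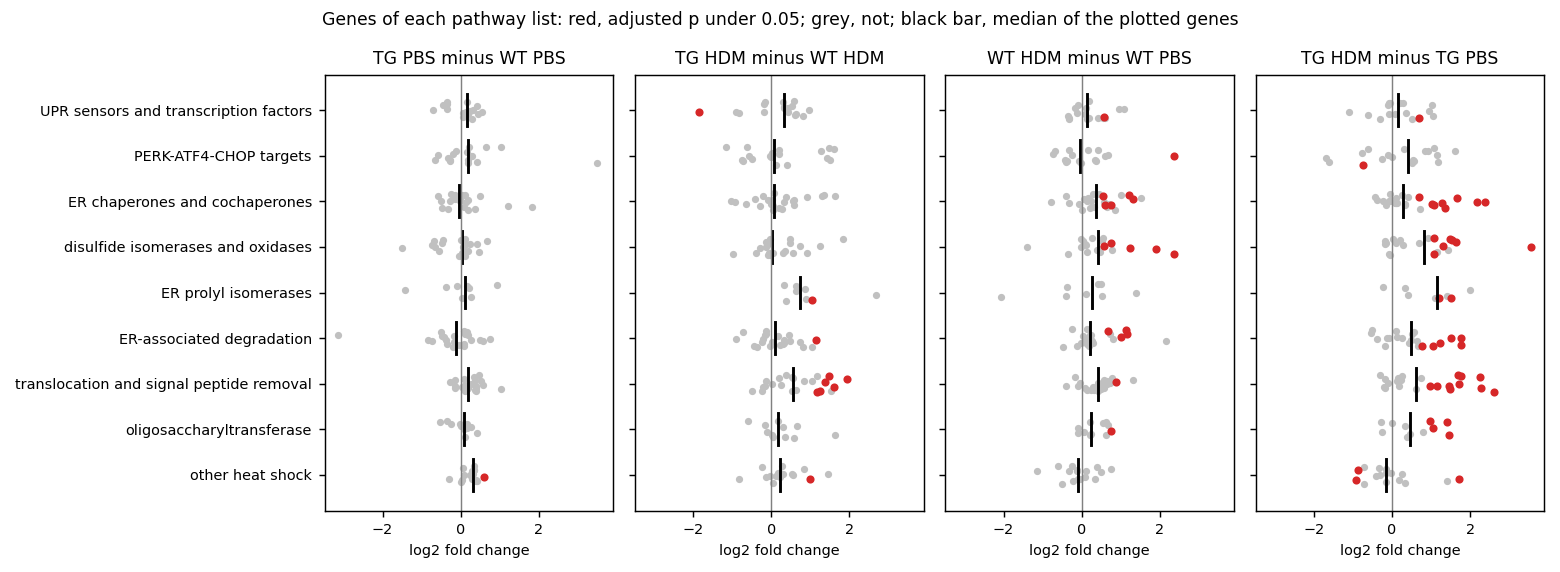
Log2 fold change of each tested gene in the 8 pathway lists, the 10 genes included, and in the heat shock list, for the 4 comparisons, with red for an adjusted p under 0.05 (edgeR), grey for the others and a black bar at the median of the points drawn. Ern2 and Derl3 are left out of TG HDM against TG PBS because of their counts at 0. Red points lie to the right of 0 in most lists with HDM, and in TG HDM against WT HDM most of them are in translocation and signal peptide removal.

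Markers of secretory cells moved with HDM, and so did those of other cell types. In bulk tissue more cells of a type and more RNA per cell cannot be told apart. In WT mice 6 of 6 B cell, 7 of 8 skeletal muscle and 4 of 7 macrophage markers were called higher with HDM. There, 1 macrophage, 4 of 5 club and 4 of 6 thymocyte markers were lower, where 6.74% of all genes were called. In TG mice 4 of 6 B cell, 5 of 7 macrophage and 2 of 5 club markers were higher. Lower there were 2 club and 2 of 8 skeletal muscle markers, where 13.8% of all genes were called. Of 8 alveolar type 2 markers, 2 were called higher and 1 lower in WT mice, and 1 higher and 2 lower in TG mice. Of 6 fibroblast markers, 1 was higher and 1 lower in WT mice, and 1 higher and 2 lower in TG mice. Among eosinophil markers, 1 of 5 tested was higher in WT mice and 1 of 4 in TG mice. The summed level of 10 goblet cell markers was 759 to 778 CPM in WT PBS, 571 to 628 in TG PBS, 4586 to 4610 in WT HDM and 1918 to 2368 in TG HDM. Foxa3 was at 0 in WT PBS and Itln1 at 0 in TG PBS. With HDM 6 of 8 tested goblet markers rose in WT mice and 7 of 9 in TG mice, where 4.44% and 8.43% of all genes rose. In TG HDM against WT HDM 5 of 9 were lower, where 0.599% of all genes were called lower. The other 4 tested, Tff2 (18.9 and 7.92 CPM), Itln1 (7.76 and 4.46), Galnt12 (7.37 and 3.88) and Spdef (3.21 and 1.12), had higher means in TG HDM than in WT HDM and did not pass the test. Most of the sum came from Muc5b and Clca1. Muc5b, a mucin, went from 754 and 729 CPM in WT PBS to 2278 and 2282 in WT HDM, and from 534 and 584 in TG PBS to 1114 and 1401 in TG HDM.

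The sum of 8 plasma cell markers was 252 to 263 CPM in WT PBS, 182 to 225 in TG PBS, 1057 to 1110 in WT HDM and 2156 to 2206 in TG HDM, with Tnfrsf17 at 0 in WT PBS. With HDM 5 of 8 rose in WT mice and 5 of 7 in TG mice, where 4.44% and 8.43% of all genes rose. In TG HDM against WT HDM 2 of 8 were higher, where 1.84% of all genes were called higher. Jchain, the joining chain of secreted antibodies, measured 126 and 122 CPM in WT PBS, 91.8 and 93.6 in TG PBS, 752 and 729 in WT HDM and 1773 and 1726 in TG HDM. The goblet sum, set largely by Muc5b and Clca1, was thus highest in WT HDM and the plasma cell sum, set largely by Jchain, in TG HDM. Markers of other cell types differed between TG HDM and WT HDM too. In TG HDM 2 of 5 club and 1 of 8 alveolar type 2 markers were called higher, and 1 of 6 fibroblast markers lower. Of 7 macrophage markers 1 was higher and 1 lower. No B cell, eosinophil, thymocyte or skeletal muscle marker was called by edgeR in that comparison. By means alone, Hsp90b1, Xbp1, Ern2, Creld2 and Ddit3 were highest in TG HDM, and Hspa5, Ern1, Pdia4, Creb3l1 and Dnajb9 in WT HDM. The libraries of these 2 groups overlapped for Hspa5, Pdia4, Ern2 and Creld2, and only Creb3l1 was called between them. The part of goblet cells, plasma cells or other cell types in the levels of the 10 genes was not tested.

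Other marker sums were at 132 to 149 (WT PBS), 64.2 to 77.0 (TG PBS), 407 to 446 (WT HDM) and 298 to 487 CPM (TG HDM) for 6 B cell genes. The 5 club cell genes summed to between 29495 and 53945 CPM with PBS and between 10242 and 14017 with HDM, and the 8 alveolar type 2 genes to between 14755 and 25066 over all libraries, so that the defining genes of lung epithelium were present. The 7 macrophage genes ranged from 11687 to 18539 CPM, the 6 eosinophil genes from 15.1 to 34.9 (Epx at 0 in all groups but TG HDM) and the 6 fibroblast genes from 867 to 1153. Genes of tissues beside the lung were present too: 6 thymocyte genes summed to 68.3 to 68.7 CPM in WT PBS and to at most 19.9 elsewhere, and 8 skeletal muscle genes to 42.8 to 45.4 in WT PBS and to between 107 and 280 in the other groups. Their part in the results was not tested.

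**Figure D4:**
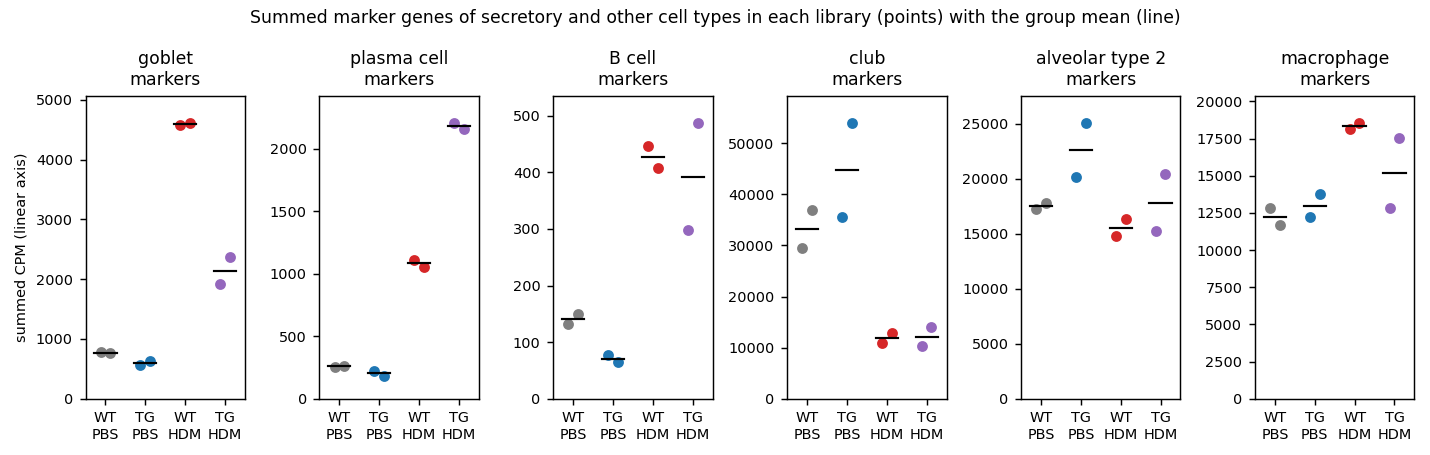
Summed CPM of the marker genes of 6 cell types on linear axes that start at 0, with a point for each library and a line at the mean of a group. The goblet sum, mostly Muc5b and Clca1, is highest in WT HDM and the plasma cell sum, mostly Jchain, in TG HDM, while 4 goblet markers of low level have higher means in TG HDM than in WT HDM.

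The genes whose levels followed those of the 10 most closely were looked for among 15868 genes, by the root mean square difference of log2 CPM over the 8 libraries, each gene centred on its own mean. Clint1 was nearest to Hsp90b1 (0.0835), Lrrc8c to Dnajb9 (0.0820), Rpl15 to Xbp1 (0.105), Pak1ip1 to Creld2 (0.135) and Ifi209 to Pdia4 (0.142). Hspa5 was nearest to Gvin1 and Gm4070 (0.0743), which had identical values. Creb3l1 was nearest to Tet1 (0.203), Ern1 to Naip5 (0.151), Ddit3 to Rab5if (0.114) and Ern2 to Podnl1 (0.304). None of the 10 had another of the 10 among its 3 nearest genes.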

How the data were processed

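Lung RNA of 4 pooled mice per group was converted to amplified cDNA by the authors (PrepX SPIA kit), aligned to mm10 (GRCm38) with TopHat, and summed over the coding region of each gene. The deposited values are read counts under Entrez identifiers, without normalization. Aligner version, gene annotation and strand handling were not given in the sources used here. Libraries were assigned by their titles. Names and positions came from RefSeq GRCm38.p6 (23372 genes) and transcript lengths from GENCODE M21 (21145 genes).

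Each comparison was fitted on its own 4 libraries with edgeR 4.0.16 (R 4.3.3; quasi-likelihood, TMM, filterByExpr with a count minimum of 10), and the interaction on all 8. P-values were adjusted by Benjamini-Hochberg over all genes tested, with a threshold of 0.05, and "called" means past it. The SE is the log2 fold change divided by the square root of F. CPM were scaled by TMM over the 8 libraries. The method was also run on simulated counts, with the same relative spread between libraries for all genes and changes only in well-counted ones. That run does not cover changes at low counts or a spread that differs between genes. Alternatives were RLE size factors, DESeq2 1.42.0, no low-count filter, a replicate block, a loess offset for transcript length (span 0.5), a joint fit and each library left out.

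The 10 genes, the lists and the tests were chosen with earlier results of these data known. Beside the 10, up to 5 genes in each direction were named per comparison from the wider lists, by size of change among called genes with no overlap of libraries, with the 2 most abundant markers of a cell type, the 3 nearest genes by level, Ddah1, Xist and Ddx3y. Slc3a2, Foxa3, Itln1, Tnfrsf17 and Epx are named under the same rule or as markers at 0, and Tff2, Galnt12 and Spdef were chosen after their values were seen.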

Additional observations from a re-analysis of the deposited data

Results flagged for a closer look

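The genotype difference of Sec61b, the beta subunit of the Sec61 translocation channel, was not the same in HDM-treated and PBS-treated libraries. Treatment and the split by sex cannot be told apart here. TG against WT was larger with HDM than with PBS by 1.71 on the log2 scale (SE 0.33, adjusted p = 0.0078 in edgeR's interaction test over 8 libraries). The libraries had 26.8 and 32.7 CPM in WT PBS, 30.9 and 37.0 in TG PBS, 41.1 and 43.8 in WT HDM and 161 and 155 in TG HDM. Without WT PBS replicate 2 the value was 1.56 (adjusted p = 0.0589), and with the offset for transcript length it was 0.99 (adjusted p = 0.184). It was the only call among the 133 genes tested in the pathway lists, and none of the 10 ER stress and folding genes was called in that test.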

How the results depend on the processing

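Of the alternatives for the single log2 fold changes of the 10 genes, 445 kept direction and side of the threshold, 24 passed it, 26 lost it and 24 changed sign. The spread between libraries of a pool and the counts of Ern2 and Ddit3 limit what could be detected. Calls for the 10 genes in TG HDM against WT HDM numbered 2 with DESeq2, without the low-count filter, with the replicate block and in the fit of all 8 libraries, against 1. In TG HDM against TG PBS there were 3 with the length offset, against 6. In the interaction there were 2 with DESeq2 and without the filter and 1 with the replicate block and with the length offset, against 0. Leaving out each library gave 0 to 0, 0 to 4, 2 to 4, 0 to 5 and 0 to 1 in the order TG PBS against WT PBS, TG HDM against WT HDM, WT HDM against WT PBS, TG HDM against TG PBS and interaction.

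In the same order, the wider lists (0, 8, 14, 35 and 1 called) gave 2, 19, 23, 38 and 7 with DESeq2 and 2, 19, 23, 40 and 5 without the filter. TG HDM against WT HDM had 14 with the replicate block, 15 in the fit of all 8 libraries and 3 with the length offset, and TG HDM against TG PBS 18 with that offset. Leaving out each library gave 0 to 5, 0 to 25, 4 to 22, 4 to 37 and 0 to 5. Over all genes (98, 370, 1020, 2079 and 279 called), DESeq2 gave 223, 922, 1393, 2631 and 680, and the fit without the filter 306, 1055, 1588, 2834 and 675. With the replicate block 45 genes were called with PBS and 625 between genotypes with HDM, and with all 8 libraries 771. The length offset left 157 (83 higher, 74 lower, against 279 and 91), 1408 (696 and 712, against 1272 and 807) and 213 in the interaction (79 and 134, against 167 and 112). Leaving out each library gave 75 to 432, 6 to 1595, 652 to 1661, 277 to 2676 and 138 to 721.

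Replicate numbers did not pair the libraries: differences between replicates correlated between -0.0214 and 0.0317 across groups.

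Signs that changed were those of values near 0 or with far-apart libraries. Between genotypes with PBS they were Hsp90b1 (0.022, length offset), and with a library left out Ddit3 (-0.77 to 0.24) and Pdia4 (-0.047 to 0.19). With HDM they were Hspa5 (-0.017 with RLE and with DESeq2, -0.0086 without the filter, -0.038 in the joint fit, -0.028 to 0.017 with a library left out), Pdia4 (-0.28 to 0.12) and Ern2 (-0.63 to 1.28). In WT HDM against WT PBS the ranges with a library left out were -0.033 to 0.73 for Creld2, -0.75 to 0.26 for Ddit3, -0.36 to 0.46 for Ern1 and -0.017 to 0.73 for Creb3l1. In TG mice Ern1 was 0.15 with the offset and -0.77 to 0.32 with a library left out. In the interaction Xbp1 was -0.088 with the offset and -0.051 to 0.24 with a library left out, Pdia4 -0.38 to 0.018 and Ern1 -0.91 to 0.23. The cause was not tested.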
